A study of Rattus norvegicus with 23 samples.

Results

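Voltage-gated and TRP ion channel genes were read in the rat area postrema as the genes whose symbol in the platform annotation starts with Kcn, Scn, Cacn, Hcn, Trpv, Trpm or Trpc, leaving out Kcnj13. The rule gave 133 of the 14217 genes that a probe set names alone. They are covered by 207 probe sets: 85 genes have 1 and 48 have several, and each gene was read by the probe set with the highest mean over all 23 arrays. The set was sorted into 20 subfamilies by symbol, and many members are not themselves channels gated by voltage or of the TRP family. Among them are 14 inward rectifier (Kcnj) and 11 two-pore-domain (Kcnk) potassium channel genes and 11 potassium channel accessory subunits. The epithelial sodium channel subunits (Scnn), the splicing factor Scnm1 and Trpc4ap are others.

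The samples were male rats of 3 strains. The spontaneously hypertensive rat (SHR, 5 arrays) and its usual normotensive comparison strain, the Wistar Kyoto rat (WKY, 5 arrays), were 10 to 13 weeks old. Sprague Dawley rats of 10 to 12 weeks were dehydrated for 72 h (4 arrays), fasted for 48 h (5 arrays) or kept as controls (4 arrays). Each array holds RNA pooled from 5 animals, so the tests measure the spread between pools and not between animals. By its title the series asks how hypertension, thirst and hunger bear on this transcriptome. In such bulk tissue, fewer cells of a type and less RNA per cell cannot be told apart.

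The area postrema is a sensory circumventricular organ of the medulla without a full blood-brain barrier, whose neurons sense circulating hormones, toxins and plasma composition. Voltage-gated sodium and calcium channels drive the action potential and calcium entry, and potassium channels set the resting potential, the repolarization and the firing rate. HCN channels carry the pacemaker current, and TRP channels are cation channels opened by temperature, lipids, osmotic or mechanical stimuli or by calcium itself. Accessory subunits, such as the Kcnip calcium-binding proteins of the Kcnd channels and the Cacnb and Cacna2d subunits of calcium channels, control how much channel reaches the membrane and how it gates.

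Values are signals on the deposited linear scale, in which the trimmed mean of every array is 100; array medians ran from 39.81 to 44.48. A signal belongs to its own probe set and levels of different genes are not compared. Transcripts that mark the area postrema were present on every array, among them Calcr, the calcitonin and amylin receptor, at 95.6 to 166.0, and Th, tyrosine hydroxylase, at 246.1 to 428.2. A score was formed for each cell type as the mean log2 deviation of its markers. The choroid plexus score, over 10 markers, was 0.53, 0.69 and 1.19 in dehydrated arrays 1 to 3, 1.4 in fasted array 4 and 1.21 in control array 3, and at most 0.08 in the other arrays. It lay between -0.61 and -0.32 in SHR and between -0.56 and -0.22 in WKY. The microglia and macrophage score, over 12 markers, lay between -0.18 and 0.23 in SHR and between 0.16 and 0.36 in WKY. The fibroblast and meninges score, over 10 markers, lay between -0.52 and -0.3 in SHR and between -0.25 and 0.09 in WKY, without overlap.

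Of the 133 genes, 79 passed the filter on dim probe sets in the SHR and WKY fit, 77 in the Sprague Dawley fit and 73 in both. The 50 genes below the filter in both fits had group mean signals between 0.4 and 37.7, and they were tested only in an alternative fit without the filter. In that limma fit none of the 50 was called in any comparison. Over all 31042 probe sets of that fit, 2.77% were called between SHR and WKY and 0.0483% between dehydrated and control rats. Between fasted and control rats 0.00644% were called, and between dehydrated and fasted rats 0.0258%. At an unadjusted p below 0.05, 4 passed between SHR and WKY, 6 between dehydrated and control, 4 between fasted and control and 4 between dehydrated and fasted rats. The share of all probe sets at that p was not counted in this fit. In the fits with the filter it was 17.2%, 11.7%, 7.19% and 10.0%, in the same order. The 50 genes below the filter include Trpv1, the capsaicin receptor, at 10.1 ± 2.5 in SHR and 10.9 ± 3.6 in WKY (SD, n = 5 each), and Trpv4, an osmosensitive cation channel, at 2.4 ± 1.0 in SHR and 2.4 ± 1.3 in WKY. Trpv4 was at 2.4 ± 0.7 in dehydrated, 4.4 ± 5.2 in fasted and 3.2 ± 2.6 in control rats. Hcn4, Cacna1g, Trpc5, Kcnj8, Kcnj10 and Scnn1a also lay below the filter. Scn10a, a sodium channel known from sensory neurons, was at 22.2 ± 2.4 in dehydrated, 14.9 ± 5.3 in fasted and 37.7 ± 2.4 in control rats (SD, n = 4, 5 and 4), also below the filter. Every dehydrated array, at 25.3 or less, and every fasted array, at 20.5 or less, lay below the control arrays, at 34.7 to 39.7. In the fit without the filter Scn10a was at -0.49 in dehydrated and -0.81 in fasted against control rats (adjusted p = 0.2629 and 0.07169 in limma).

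Between SHR and WKY, 2 of the 79 channel genes tested passed an adjusted p of 0.05 in limma, both lower in SHR and none higher. Over all 18625 probe sets tested 5.06% passed, and 2.88% passed and were lower. Differences are given on the scale of log2(signal + 16), as the mean of the first group named minus that of the second. The median log2 difference was -0.03 over the channel genes and 0.01 over all probe sets, with 32 channel genes positive and 47 negative. At an unadjusted p below 0.05, 11 of 79 passed, 13.9% against 17.2% of all probe sets, and in 4 of 79 the arrays of SHR and WKY did not overlap, 5.06% against 6.33%. On the scale of log2(signal + 16), which understates the folds of dim genes, the 95% interval lay within a 1.5-fold change in either direction for 75 of the 79 genes.

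Kcna5, which encodes a delayed rectifier potassium channel known from vascular smooth muscle, heart and microglia, was the channel gene with the largest difference. Its signal was 118.1, 138.4, 106.6, 104.9 and 85.6 in SHR, against 241.8, 255.1, 186.1, 183.7 and 212.9 in WKY. Every SHR array lay below every WKY array. The means were 110.7 ± 19.4 in SHR and 215.9 ± 32.2 in WKY (SD, n = 5 each), a log2 difference of -0.87 (SE 0.11, adjusted p = 6.594e-05 in limma). The Sprague Dawley groups had 107.1 ± 10.5 dehydrated, 114.9 ± 12.9 fasted and 101.1 ± 17.4 in controls (n = 4, 5 and 4), which overlap SHR and lie below every WKY array. Kcna5 has 1 probe set on the array.

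Markers of microglia and macrophages differed beside Kcna5, and 3 of the 11 tested were lower in SHR and none higher: C1qa (log2 difference -0.35, adjusted p = 0.007779), Aif1 (-0.39, adjusted p = 0.02696) and C1qc (-0.41, adjusted p = 0.03206 in limma). Of the fibroblast and meninges markers 3 of 8 tested were lower, and of the choroid plexus markers 2 of 6 were lower and 1 higher, when 2.88% of all probe sets were called and lower. SHR array 1 had a microglia score of 0.23, inside the WKY range, with a Kcna5 signal of 118.1. With the microglia score as a covariate, chosen after these scores were seen, the log2 difference of Kcna5 was -0.7 (SE 0.173, adjusted p = 0.06289), and with the fibroblast score it was -0.83 (SE 0.188, adjusted p = 0.05196 in limma). In those fits 242 and 170 of 18625 probe sets were called, against 942. In the Sprague Dawley rats, another strain and array set, the microglia score lay between -0.26 and 0.03 and the fibroblast score between -0.04 and 0.46. Their Kcna5 signals lay between 80.4 and 132.0. Since both scores were lower in SHR on average, the covariate fits cannot tell cell content from strain. The part of these cells in the strain difference was not tested.

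Kcnip3, a calcium sensor that binds Kcnd channels and also acts as a transcriptional repressor, was the other gene called. Its signal was 38.1, 28.2, 35.9, 59.6 and 55.2 in SHR, against 69.8, 79.5, 54.6, 63.0 and 70.5 in WKY. The groups overlap at 1 WKY array. The means were 43.4 ± 13.4 in SHR and 67.5 ± 9.3 in WKY (SD, n = 5 each), a log2 difference of -0.51 (SE 0.136, adjusted p = 0.03617 in limma). The Sprague Dawley groups had 55.6 ± 14.2 dehydrated, 40.2 ± 12.9 fasted and 46.9 ± 9.1 in controls (n = 4, 5 and 4). With the microglia or the fibroblast score as covariate the difference was -0.54 (SE 0.226) or -0.65 (SE 0.228), with adjusted p = 0.367 and 0.3439 in limma. Both scores differ between the strains, so these fits have a larger SE and cannot decide whether the difference remains. The call was also lost, with an adjusted p of 0.05684 to 0.0959, when SHR array 1, 2 or 3 or WKY array 1, 2, 4 or 5 was left out, and a second probe set of the gene was too dim to test, at 3.2 in SHR and 4.5 in WKY.

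The promoters of both genes are shown because these are the transcripts whose level differed between the strains, although no binding or methylation was measured. The windows run from 250 bases before to 50 after the annotated start in RefSeq, build GRCr8, in the direction of transcription: chr4:161043760-161044059 (minus strand) for Kcna5 and chr3:135195361-135195660 (minus strand) for Kcnip3. Capitals mark matches on either strand to CAGCTG (an E-box, its own reverse complement), GGGCGG (a GC box) and TGACG (a CRE core), while TATAAA was also searched and not found in these windows.
Kcna5: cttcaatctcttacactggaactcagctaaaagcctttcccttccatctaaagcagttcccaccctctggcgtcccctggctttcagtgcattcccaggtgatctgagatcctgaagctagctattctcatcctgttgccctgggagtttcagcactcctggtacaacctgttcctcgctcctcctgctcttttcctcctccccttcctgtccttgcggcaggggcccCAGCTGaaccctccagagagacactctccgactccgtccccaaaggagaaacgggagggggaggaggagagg
Kcnip3: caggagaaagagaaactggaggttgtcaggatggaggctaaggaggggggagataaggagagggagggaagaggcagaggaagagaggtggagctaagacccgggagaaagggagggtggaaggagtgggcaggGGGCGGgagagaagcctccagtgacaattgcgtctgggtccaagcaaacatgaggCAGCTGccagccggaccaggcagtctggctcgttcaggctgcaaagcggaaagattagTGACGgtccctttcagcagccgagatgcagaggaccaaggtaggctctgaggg
Counted from the start site, the E-box begins at -22 in Kcna5 and at -61 in Kcnip3, and the Kcnip3 window also holds the GC box at -116 and TGACG at -3. Of all 33469 promoter windows 15.1% hold CAGCTG, 33.1% GGGCGG, 21.2% TGACG and 14.2% TATAAA. Among 105 windows of 95 channel genes that could be matched, the shares were 23.8%, 52.4%, 22.9% and 3.8%. A match is a description of the sequence and not a binding site. Both windows are the reference sequence and were not read in SHR or WKY.

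**Figure D1:**
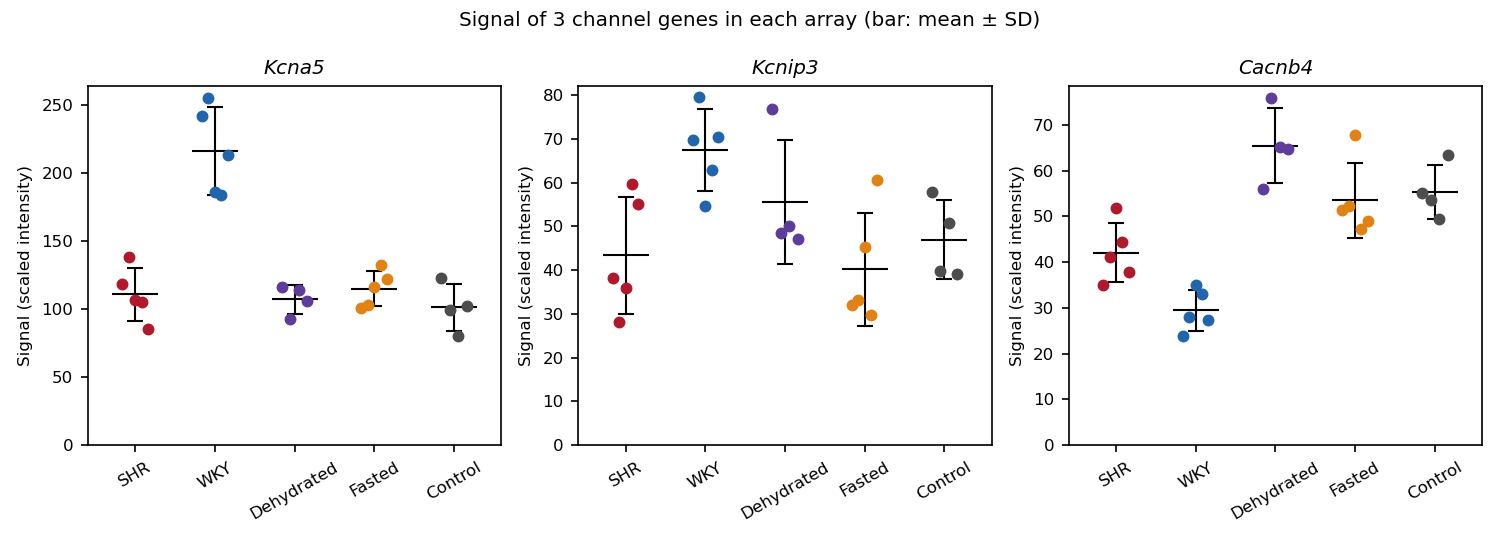
Signal (scaled intensity, linear axis from 0) of Kcna5, Kcnip3 and Cacnb4 in each of the 23 arrays, by group; points are arrays, bars the mean ± SD. In Kcna5 the 5 SHR arrays lie between 85.6 and 138.4 and the 5 WKY arrays between 183.7 and 255.1.

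Of the 10 voltage-gated potassium channel pore genes tested, Kcna5 among them, 9 had a negative difference, with a median of -0.11, and none but Kcna5 passed the test. Kcnd2, the A-type potassium channel that Kcnip proteins bind, had 164.9 to 196.4 in SHR and 211.5 to 227.3 in WKY, without overlap. Its log2 difference was -0.21 (adjusted p = 0.08624 in limma), and its second probe set gave -0.06. Among accessory subunits Kcnip2 had the opposite sign to Kcnip3, at 185.9 ± 21.4 in SHR and 146.3 ± 25.0 in WKY (SD, n = 5 each), a difference of 0.32 (adjusted p = 0.09887 in limma). Across the alternatives the Kcnip2 difference lay between 0.03 and 0.38, with an adjusted p up to 0.9949 in limma. All 4 ether-a-go-go genes (Kcnh) tested lay between 0.03 and 0.09. Of the leak channels Kcnk4, a mechanosensitive one, was at -0.34 (adjusted p = 0.1287) and Kcnk1 at 0.2 (adjusted p = 0.3555 in limma), and 6 of 7 leak channel genes were negative. The acid-sensitive leak channels Kcnk3 and Kcnk9 were at -0.02 and -0.07. Kcnj11, the pore of the ATP-sensitive potassium channel, differed by 0.08 (95% interval -0.15 to 0.32), Kcnma1, the large-conductance calcium-activated channel, by 0.17 (-0.05 to 0.38) and its Kcnmb4 subunit by 0.22 (-0.04 to 0.48). Kcnq3, a subunit of the muscarine-sensitive M current, was at -0.04, and Kcnj3, a G protein-gated inward rectifier, at -0.22.

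Sodium channel pore genes that passed the filter were all 5 positive, from 0.03 to 0.23, and none was called. The 4 below the filter, Scn10a, Scn11a, Scn4a and Scn8a, were negative in the fit without it, from -0.37 to -0.06. Scn9a, a sodium channel of sensory and autonomic neurons, had 220.6 ± 17.0 in SHR and 186.0 ± 10.9 in WKY (SD, n = 5 each), a log2 difference of 0.23 (adjusted p = 0.07391 in limma). Of the alternatives, it passed only without SHR array 2 (adjusted p = 0.03396 in limma). Across them its difference lay between 0.11 and 0.27, with an adjusted p up to 0.9283. Scn7a, the sodium-sensing channel known from circumventricular organs, differed by 0.03 (95% interval -0.23 to 0.29), and the epithelial sodium channel subunits Scnn1b and Scnn1g by -0.01 and -0.05.

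Calcium channel genes held the largest positive difference. Cacnb4, an auxiliary subunit, had 35.0, 41.2, 51.8, 44.5 and 37.8 in SHR, against 23.9, 28.0, 34.9, 33.1 and 27.3 in WKY. Every SHR array was above every WKY array, by a narrow margin. The log2 difference was 0.35 (adjusted p = 0.07149 in limma), and it was called in 3 alternative fits and with arrays 1 and 2 blocked against 3 to 5, at an adjusted p of 0.04362 to 0.04998. Over all alternatives run, the Cacnb4 difference lay between 0.1 and 0.5, and its adjusted p reached 0.8802 in limma. Cacna2d1, the gabapentin-binding subunit, was also without overlap, at 171.3 to 193.9 in SHR and 207.7 to 217.4 in WKY, a difference of -0.18 (adjusted p = 0.1079). The pore genes Cacna1a, Cacna1b, Cacna1c and Cacna1d differed by -0.09 to 0.08.

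Of the HCN channels, Hcn3 differed by -0.31 (adjusted p = 0.1374) and Hcn2 by 0.16 (adjusted p = 0.4022 in limma), with opposite signs. Hcn2 had 98.4 ± 11.0 in SHR and 86.3 ± 10.7 in WKY, and Hcn3 had 45.4 ± 8.7 in SHR and 59.5 ± 7.4 in WKY (SD, n = 5 each). The TRP channels showed no call: Trpv5, an epithelial calcium channel, was at -0.22 (adjusted p = 0.1771 in limma), Trpm3 at -0.18, Trpm4, a calcium-activated cation channel, was at -0.19, Trpm7 at 0.04 and Trpv2 at 0.02.

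**Figure D2:**
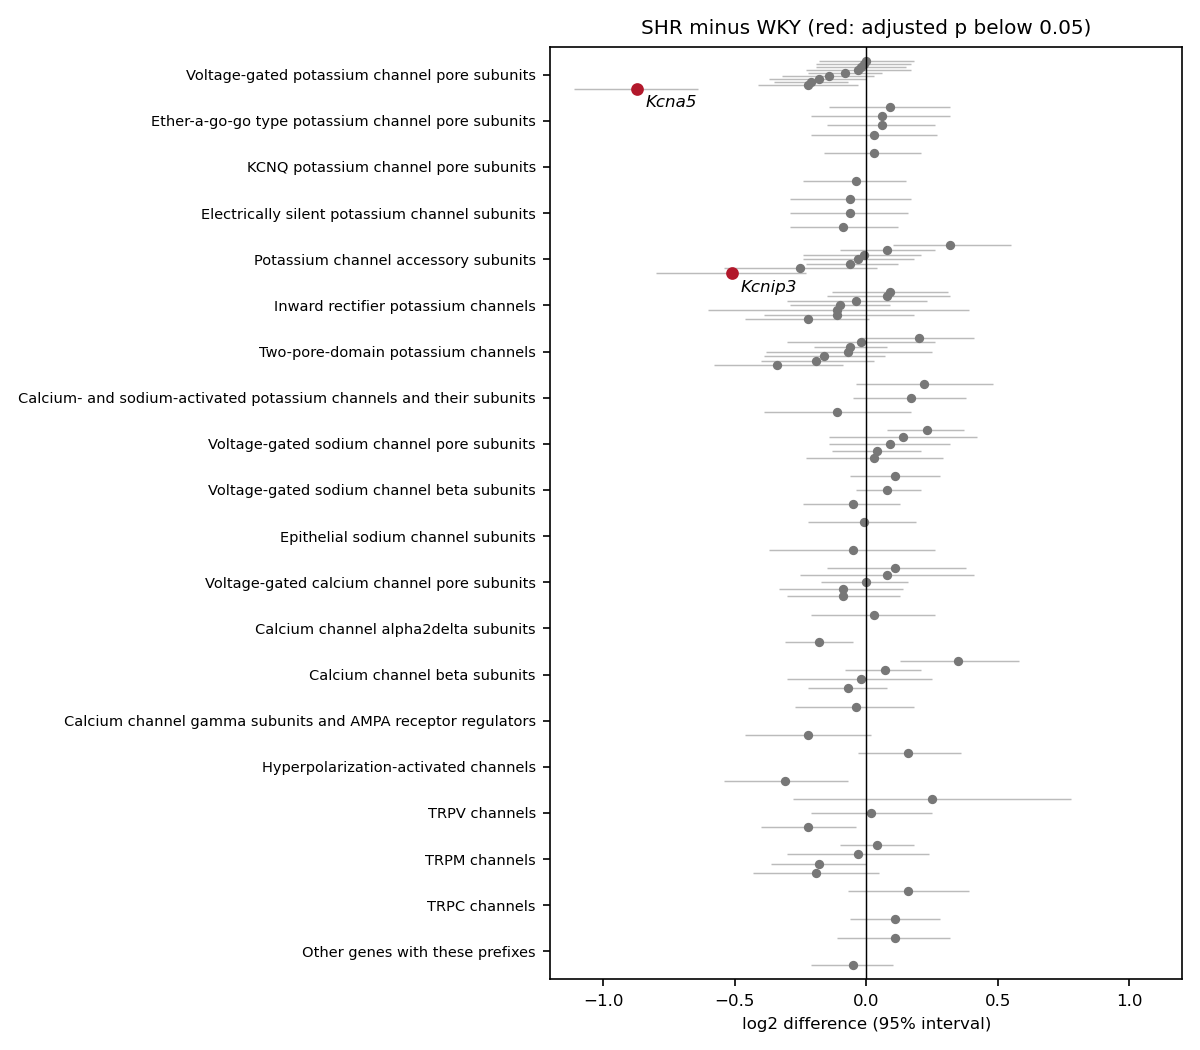
SHR minus WKY difference in log2(signal + 16) of the 79 channel genes tested, by subfamily; points are genes, grey lines 95% intervals, and red points passed an adjusted p of 0.05. Only Kcna5 and Kcnip3 are red, at -0.87 and -0.51.

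Genes that act on or with these channels were read as 2 further lists, channel partners and calcium release and store entry. Of 21 channel partners tested, such as ankyrins, Fgf homologous factors and the Nalcn complex, 1 was lower in SHR and none higher, when 5.06% of all probe sets were called and 2.88% called and lower. It was Nedd4l, a ubiquitin ligase that removes epithelial and voltage-gated sodium channels from the membrane. Its signal was 144.2, 145.7, 117.5, 137.9 and 144.4 in SHR, against 214.5, 197.2, 184.4, 169.9 and 178.4 in WKY, without overlap (log2 difference -0.41, adjusted p = 0.003549 in limma). Of 16 genes of calcium release and store entry tested, 1 was lower and none higher, against 5.06% of all probe sets called, and 8 of 16 passed at an unadjusted p below 0.05 in limma, against 17.2% of all probe sets. The gene called was Tpcn1, an endolysosomal cation channel, at 205.6 ± 17.3 in SHR and 265.7 ± 30.4 in WKY (SD, n = 5 each), a difference of -0.34 (adjusted p = 0.01624 in limma). The median of that list was -0.16, against 0.01 over all probe sets. With the microglia score as covariate Nedd4l was at -0.28 (adjusted p = 0.3793) and Tpcn1 at -0.2 (adjusted p = 0.5886), and with the fibroblast score they were at -0.23 and -0.25 (adjusted p = 0.6951 and 0.73 in limma). The SE was 0.079 for Nedd4l and 0.081 for Tpcn1 without a covariate, and 0.122 to 0.134 with one. Both scores differ between the strains, so these fits cannot decide whether the differences remain. The call of Tpcn1 was also lost without WKY array 1 or 5 (adjusted p = 0.05375 and 0.05418).

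After 72 h of dehydration, none of 77 channel genes tested passed an adjusted p of 0.05 against control, when 0.166% of all probe sets did. At an unadjusted p below 0.05, 12 of 77 passed in limma, 15.6% against 11.7%, and in 5 of 77 the groups did not overlap, 6.49% against 6.68%. The median difference was 0.02 over the channel genes and -0.01 over all probe sets. The comparisons of dehydrated and of fasted rats share the control arrays, so their values are given side by side only.

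The smallest p belonged to Scn3a, a sodium channel pore gene known from immature and injured neurons. It had 277.8, 322.2, 339.9 and 271.3 in dehydrated rats, against 226.2, 229.3, 241.5 and 228.5 in controls, without overlap. The difference was 0.36 (95% interval 0.16 to 0.56, adjusted p = 0.1546 in limma), and in fasted rats, at 214.3 to 303.5, it was 0.1. All 5 sodium channel pore genes tested were positive, with a median of 0.22. Of the 4 below the filter, Scn10a, Scn8a and Scn11a were at -0.49, -0.25 and -0.16 and Scn4a at 0.22 in the fit without it. Scn1a was at 0.51 but rested largely on dehydrated array 1, at 105.2 against 49.8 to 54.5 in the others. Without that array Scn1a was at 0.3. Scn3b, a sodium channel beta subunit, was at 0.16 and at 0.29 by its second probe set (adjusted p = 0.3998 and 0.1711).

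Trpm3, a TRP channel opened by heat and neurosteroids, had 269.0, 251.4, 220.1 and 237.1 in dehydrated rats, against 198.9, 190.7, 197.6 and 196.5 in controls. The groups did not overlap, and the difference was 0.29 (adjusted p = 0.1647 in limma); fasted rats, at 200.5 to 249.0, also lay above every control array, with a difference of 0.22 (adjusted p = 0.5402). Kcnip4 had 350.0, 301.3, 290.7 and 276.3 in dehydrated rats, against 257.1, 260.0, 245.8 and 224.7 in controls, a difference of 0.28 (adjusted p = 0.1877), and 0.26 by its second probe set. Kcnh6, an ether-a-go-go type potassium channel, was lower in signal on every dehydrated array, at 42.3, 32.8, 19.5 and 40.8, against 47.1, 49.5, 50.4 and 57.8 in controls (difference -0.45, adjusted p = 0.2028, and -0.3 without dehydrated array 3). Kcnd3, an A-type potassium channel, was the remaining gene without overlap, at 317.6 ± 6.5 in dehydrated and 272.2 ± 24.1 in control rats (SD, n = 4 each), a difference of 0.21 (adjusted p = 0.3706 in limma). Fasted rats had 328.0 ± 45.4 (SD, n = 5), with overlap and a difference from control of 0.25 (adjusted p = 0.5146 in limma). Of the 4 ether-a-go-go genes 3 were negative, with Kcnh2 at -0.26 and Kcnh3 at -0.2. The other TRPM genes tested, Trpm4 and Trpm7, were at 0.17 and 0.18.

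The neuron marker score lay at 0.01 to 0.25 in the dehydrated arrays, against -0.03 to 0.08 in controls. With it as a covariate the differences were 0.46 for Scn3a, 0.28 for Trpm3, 0.2 for Kcnip4, -0.61 for Kcnh6 and 0.24 for Scn1a, with adjusted p of 0.1796, 0.4039, 0.5437, 0.2328 and 0.7154 in limma. With the choroid plexus score they were 0.36, 0.3, 0.26, -0.44 and 0.5. Without control array 3, whose choroid plexus score was 1.21, Scn3a was at 0.38 and Trpm3 at 0.3. Other measures also moved: the fibroblast and meninges score lay at -0.04 to 0.33 in dehydrated and 0.23 to 0.46 in control arrays. Of its 9 markers tested, 5 had an unadjusted p below 0.05 in limma, against 11.7% of all probe sets, and their median difference was -0.25 over the 9. The ependyma score lay at -0.21 to -0.08 in dehydrated and -0.09 to 0.2 in control arrays, and the log2 ratio of Gapdh 3' to 5' signal at 0.21 to 0.68 in dehydrated and 0.21 to 0.57 in control arrays. The part of fibroblast and ependyma content was not tested.

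**Figure D3:**
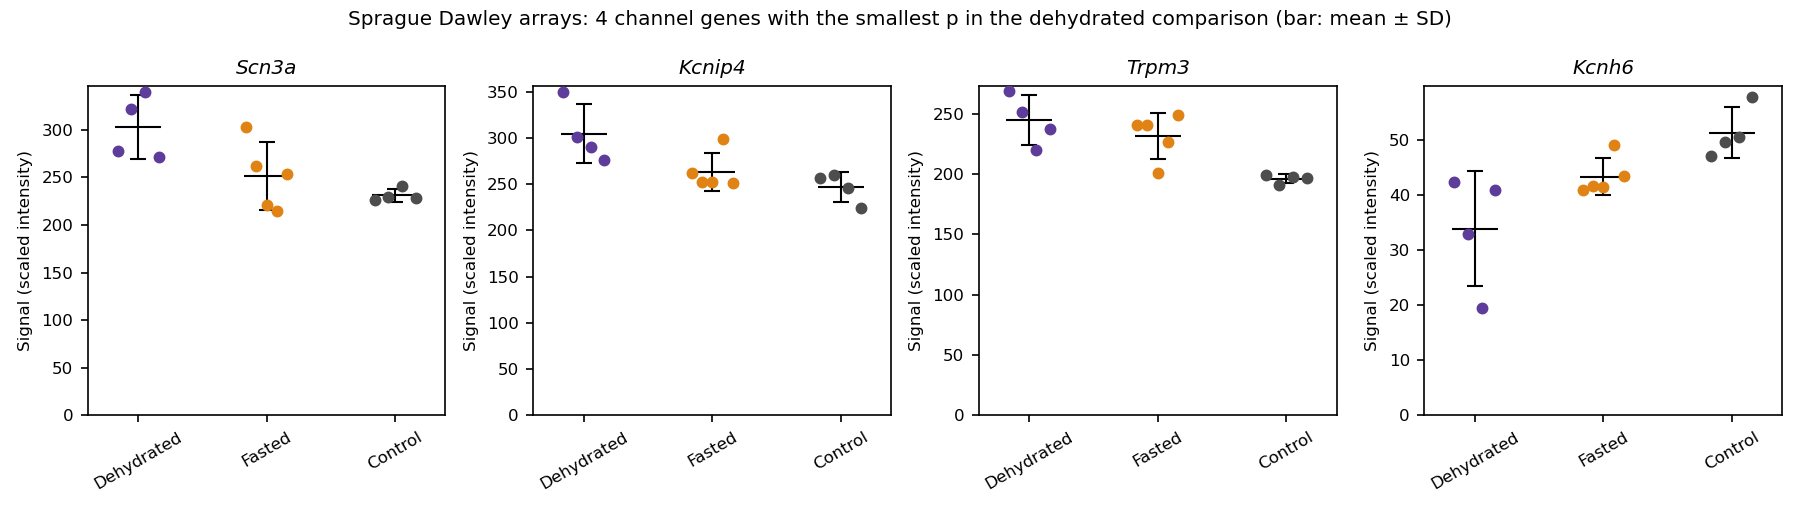
Signal (scaled intensity, linear axis from 0) of Scn3a, Kcnip4, Trpm3 and Kcnh6 in the 13 Sprague Dawley arrays; points are arrays, bars the mean ± SD. The 4 genes were picked for the smallest p between dehydrated and control rats in limma. That their dehydrated arrays all lie to one side of the 4 control arrays follows largely from this choice. No gene passed an adjusted p of 0.05.

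Channel partners had no call in the dehydrated comparison, with 5 of 22 at an unadjusted p below 0.05 in limma, 22.7% against 11.7% of all probe sets. Ank3, ankyrin-G, which anchors sodium channels at the axon initial segment, had 207.4 ± 30.6 in dehydrated and 151.2 ± 11.4 in control rats (SD, n = 4 each), a difference of 0.41 (adjusted p = 0.1337), and Fgf12, a sodium channel partner, was at 0.39 (adjusted p = 0.1604). Orai3, a store-operated calcium channel, was at -0.4 (adjusted p = 0.1757). The epithelial sodium channel subunits Scnn1b and Scnn1g were at -0.05 and -0.13, Hcn2 and Hcn3 at -0.13 and -0.1, and Cacna1h, a low-threshold calcium channel, at -0.41 (adjusted p = 0.3119 in limma) with its second probe set at 0.21. Kcna5 and Kcnip3, the genes that differed between the strains, were at 0.08 and 0.18.

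After 48 h without food, none of 77 channel genes was called, and 0.0215% of all probe sets were. At an unadjusted p below 0.05, 8 of 77 passed in limma, 10.4% against 7.19%, and 1 of 77, Trpm3, was without overlap, 1.3% against 2.32%. Of the 77, 48 differences were positive and 29 negative. Kcna1, a low-threshold potassium channel, had 81.7, 59.6, 68.0, 51.0 and 67.5 in fasted rats, against 63.4, 31.5, 51.8 and 34.6 in controls, which overlap (difference 0.43, adjusted p = 0.5125). Trpm4 was at 0.29, Trpc4 at 0.29 and Scn1a at 0.42, and the potassium channels Kcnh2 and Kcnh3 at -0.22 and -0.27 (adjusted p from 0.6355 to 0.7239). Kcnj11, which senses cellular ATP, was at 164.2 ± 55.8 in fasted (n = 5) and 130.0 ± 21.2 in control rats (n = 4), a difference of 0.26 (95% interval -0.13 to 0.65) that was 0.13 without fasted array 4, 0.17 without fasted array 1 and 0.39 without fasted array 3. Kcnh3 was at -0.15 without fasted array 1. Scnn1b was at 0.24, Hcn2 and Hcn3 at 0.00 and 0.03, and Kcna5 and Kcnip3 at 0.17 and -0.18. Ank3 and Fgf12, compared with the same control arrays as above, were at 0.29 and 0.34 in fasted rats. None of the 22 channel partners tested was called, with 4 at an unadjusted p below 0.05 in limma, against 7.19% of all probe sets.

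Between dehydrated and fasted rats none of 77 was called, with 0.0322% of all probe sets called. At an unadjusted p below 0.05, 5 of 77 passed in limma, 6.49% against 10.0%, and none was without overlap, against 3.23%. The largest was Cacna1h, at 15.8 to 38.5 in dehydrated and 35.4 to 49.0 in fasted rats, a difference of -0.54 (adjusted p = 0.2411), but its second probe set gave 0.21. All 6 calcium channel pore genes tested had negative differences, with a median of -0.13, and Kcnd2 was at 0.36 (adjusted p = 0.3625 in limma). Scn3a was at 0.26, Kcnip4 at 0.2 and Kcnip3 at 0.36, the other genes at an unadjusted p below 0.05.

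**Figure D4:**
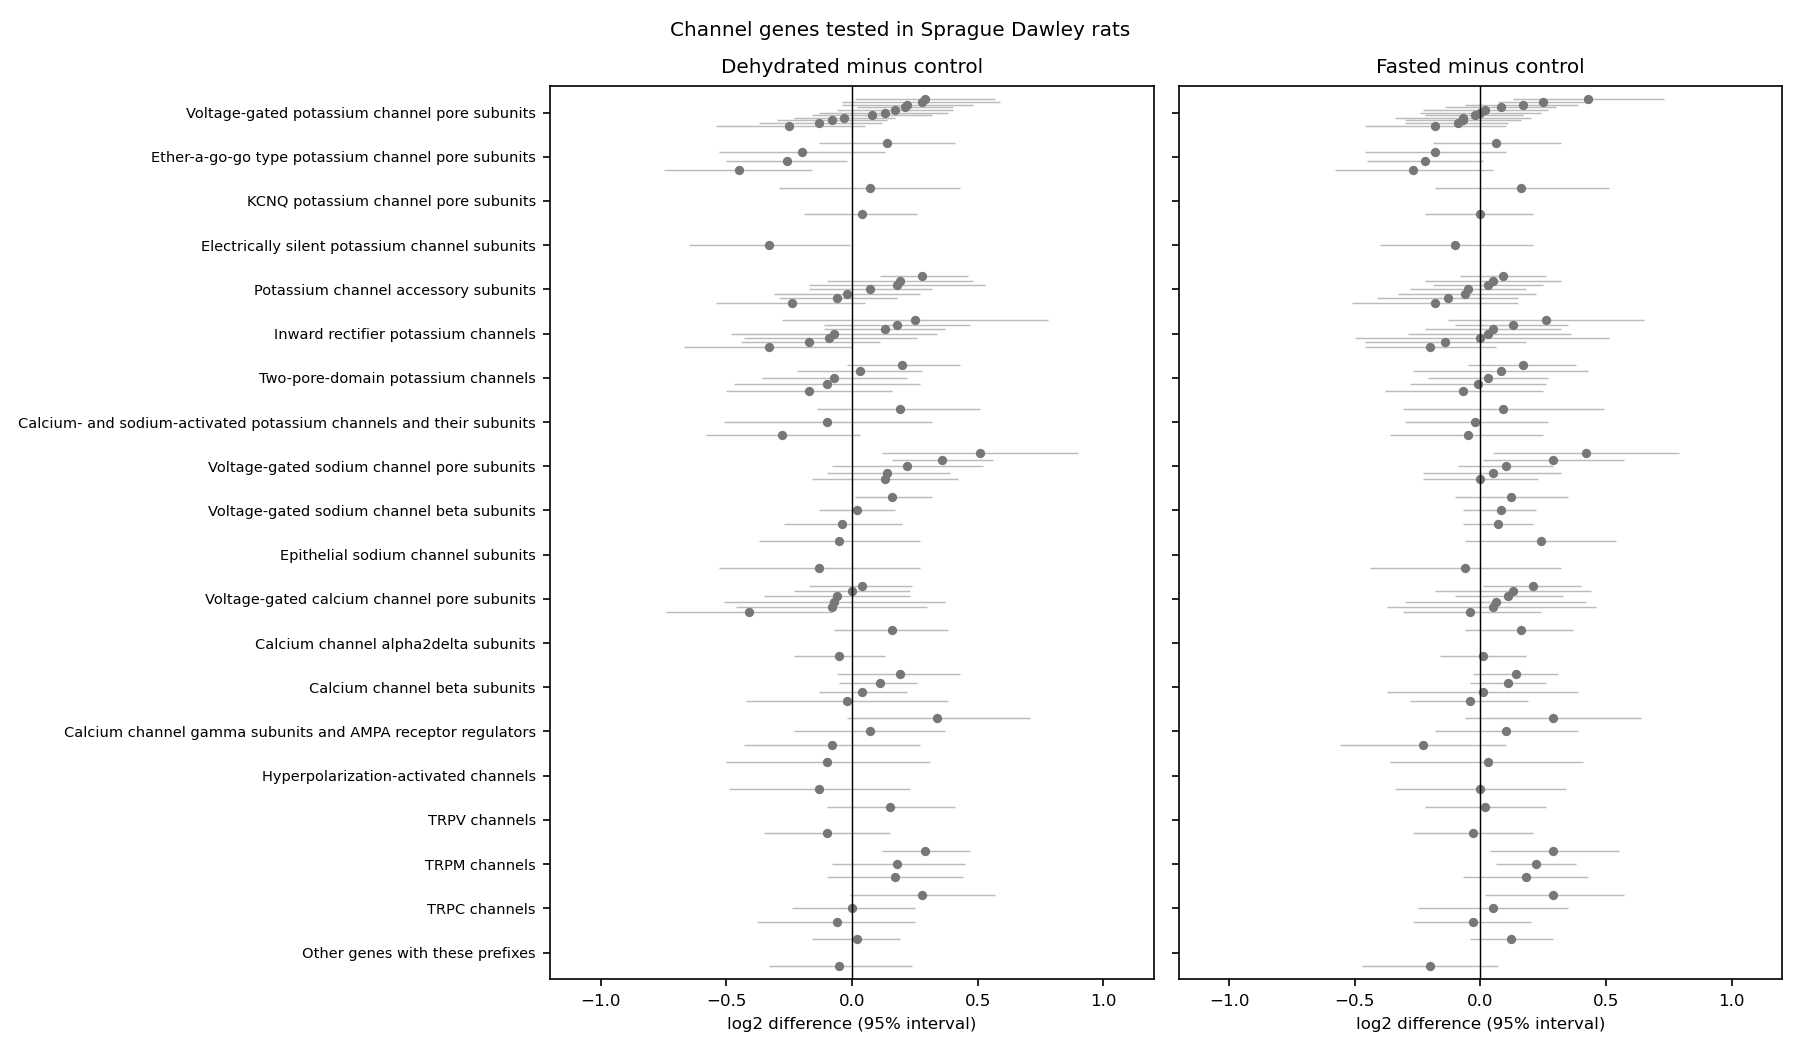
Difference in log2(signal + 16) from control of the 77 channel genes tested in dehydrated (left) and fasted (right) Sprague Dawley rats, by subfamily; points are genes and grey lines 95% intervals. No gene passed an adjusted p of 0.05, and the 5 sodium channel pore genes that passed the filter lie at or above 0 in both panels.

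The Sprague Dawley arrays were set apart from the SHR and WKY arrays at some members, but strain and array set cannot be told apart. The mean choroid plexus score also differed, at -0.44 in SHR and -0.43 in WKY against 0.6 in dehydrated, 0.16 in fasted and 0.29 in control rats. Its part in these differences was not tested. The channel genes counted here are those that passed the filter in the SHR and WKY fit, so genes too dim on those arrays were left out. Of these 79 genes, 2 had all 13 Sprague Dawley arrays above all 10 SHR and WKY arrays, 2.53% in either direction against 3.37% of probe sets. They were Trpm3, at 190.7 to 269.0 against 121.2 to 188.8, and Cacna2d3, at 150.4 to 187.1 against 95.0 to 141.0. Kcna1, at 31.5 to 81.7 against 6.3 to 38.1, had the largest difference of means on the log2 scale, at 1.04, with overlap, and was below the filter in the SHR and WKY fit. Among the other genes with overlap the difference of means was 0.68 for Cacng6, which was also below the filter, 0.65 for Scn3a, 0.52 for Cacnb4, -0.56 for Kcnj16 and -0.52 for Scn1a.

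**Figure D5:**
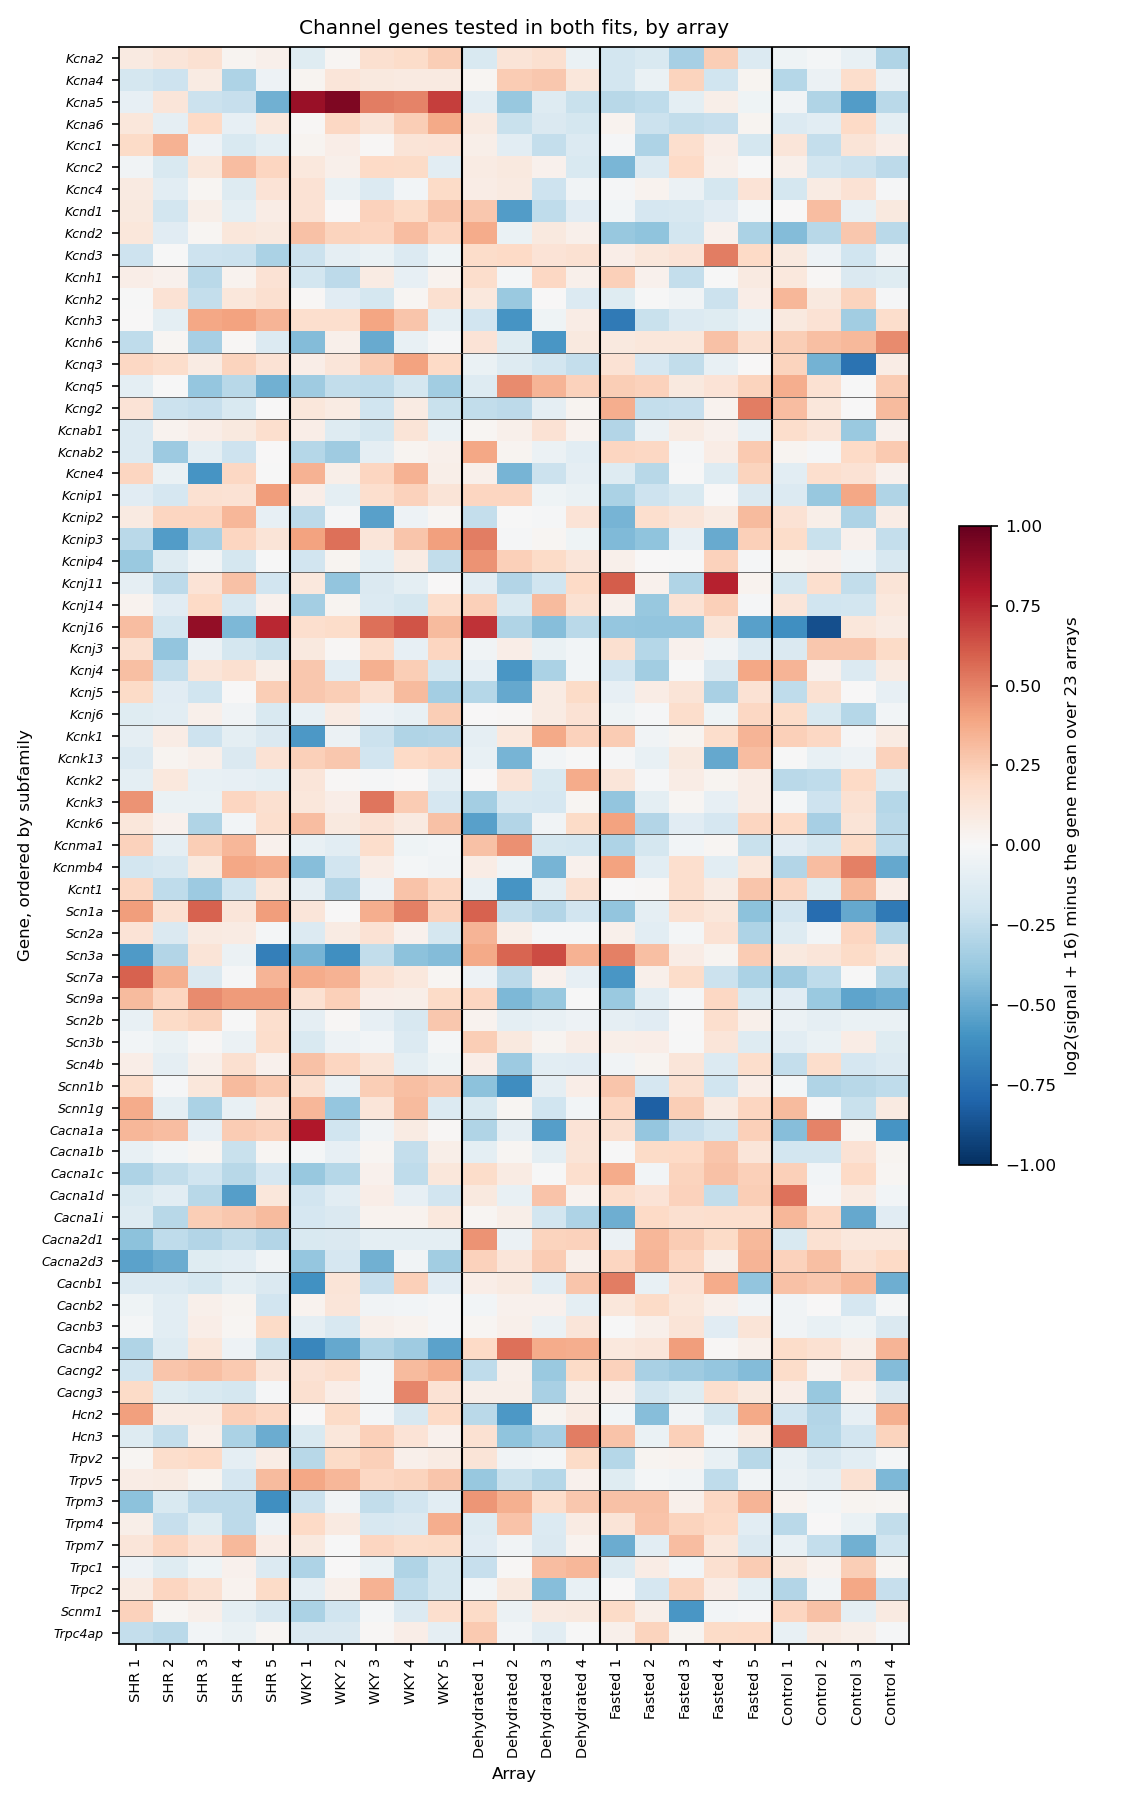
log2(signal + 16) of the 73 channel genes tested in both fits, minus the mean of each gene over the 23 arrays (colour), by array (columns) and subfamily (rows). The WKY columns of Kcna5 stand out, at 183.7 to 255.1 against 80.4 to 138.4 on the other arrays, and so do the higher Sprague Dawley columns of Trpm3 and Cacna2d3.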

How the data were processed

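Each array holds RNA pooled from 5 rats and amplified before labelling, per the labels' protocols. The authors deposited intensity signals, 1 per probe set and array, made with GCOS 1.2 per the submitters' processing notes; the settings of that step are not stated in the labels. The mean after trimming 2% at each end is 100 on each array, so the deposited intensity values were used without further normalization, as log2(signal + 16). Folds on this scale understate changes of dim genes. Precision depends on how many arrays a group holds, on the spread of the gene between arrays and on the covariates in the fit.

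The table holds 31099 probe sets: 20826 with 1 gene symbol, 436 with several, 9780 with none and 57 controls. Control probe sets and those below the 40th percentile of the mean over the arrays of a fit were left out, which kept 18625. SHR and WKY (10 arrays) and the Sprague Dawley groups (13 arrays, 1 model) were fitted with limma 3.58.1 in R 4.3.3 (lmFit, eBayes with trend and robust), two-sided, adjusted by Benjamini-Hochberg over all probe sets kept. Tables were made in Python 3.11.15 with pandas 2.3.3, and plots with matplotlib 3.10.9. The pipeline was tested on simulated data.

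The members, lists and tests were chosen with earlier results of these data known. Named genes are those called in any comparison, where fewer than 10 were called the 5 positive and 5 negative differences with the smallest p, and a fixed set of HCN, TRP, sodium, potassium and calcium channel genes; others named in the text were chosen after their values were seen.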

Additional observations from a re-analysis of the deposited data

Results flagged for a closer look

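In 14 of 220 tests of 44 named genes in the 5 groups, 1 array stood far from the others of its group; chance flags about 1 in 20. Cacna1a had 30.8 in SHR array 3 (the others reached down to 42.1) and 70.0 in WKY array 1. Cacna1d had 50.5 in fasted array 4 and 98.5 in control array 1. In the fasted group Cacnb4 had 67.7 in array 3, Cacng2 had 64.7 in array 1, Kcnh3 had 44.4 in array 1, Scnn1g had 11.5 in array 2, and Kcnd3 and Kcnip4 had 407.0 and 298.7 in array 4. Kcnip3 had 76.8 and Scn1a had 105.2 in dehydrated array 1. Kcnma1 had 45.4 in WKY array 3 and Scnn1b had 45.4 in control array 1.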

How the results depend on the processing

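The SHR and WKY count of 2 channel genes called was 1 without the filter and with the neuron marker covariate. It was also 1 with the 60th percentile filter and when a gene's probe sets were averaged. Those fits tested 41 and 42 channel genes, and Kcnip3 was not among them. With the microglia or with the fibroblast marker covariate, both chosen after the data were seen, the count was 0. It was 3 with the replicate block and with all 23 arrays in 1 model, and 3 with arrays 1 and 2 blocked against 3 to 5, also chosen after the data were seen. Leaving out 1 array gave 1 to 2. Same-numbered arrays did not deviate together in every pair (correlations from -0.167 to 0.273), so the numbers are not taken to pair the samples. Kcna5 was called in every alternative of the 26 except the 2 marker covariates named. Kcnip3 was lost without the filter (adjusted p = 0.07855), without trend and robust (adjusted p = 0.05311) and with the neuron covariate (adjusted p = 0.07269 in limma), at log2 differences of -0.51, -0.51 and -0.45 against -0.51. Tpcn1 was lost with the Gapdh covariate (adjusted p = 0.05665) and without WKY array 1 or 5 (adjusted p = 0.05375 and 0.05418). In the other comparisons the count of calls stayed at 0 under every alternative run. Over 2735 recomputed gene values, 2557 kept direction and side of the threshold, 152 differences that were never called turned sign, 21 lost and 5 gained a call, and 0 reversed a call. Only genes called in the main fit could lose or reverse a call, and most of these values belong to genes that were not called. All 21 losses fell on Kcna5, Kcnip3, Nedd4l and Tpcn1, so the total does not measure how stable those calls are.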
